A study of Mus musculus with 4 samples.

Results

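Stc2, Mboat2, Ddah1, Rragd and Myrfl are 5 of the 55487 genes counted in sorted stem cells of the mouse intestine. They were found by symbol in the GENCODE vM21 annotation, and they were chosen by their expected counts and TPM, which differed widely and in a replicate-consistent way between the small and the large intestine. That choice used the very contrast described here and names no numeric limit, so the members' own differences are given as a description without a test. RNA came from untreated Lgr5-EGFP-IRES-creERT2 mice (6 to 12 weeks of age), in which Lgr5, a gene active in crypt stem cells, drives a green reporter together with an inducible Cre. The cells from small intestine (SISC) were gated on the reporter and on absence of CD24, and those from large intestine (LISC) on the reporter, with no gate on CD24 mentioned. Each group held 2 libraries. Whether the 2 are of separate animals is not in the labels, and p-values then reflect just the spread of these samples, which may be technical.

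The 5 genes have unrelated products. Stc2 encodes stanniocalcin 2, a secreted glycoprotein that inhibits the protease PAPP-A and so keeps insulin-like growth factors bound to their binding proteins. Mboat2 encodes a membrane-bound acyltransferase that returns fatty acids, oleate above all, to lysophospholipids. Ddah1 encodes an enzyme that breaks down asymmetric dimethylarginine, an inhibitor of nitric oxide synthases. Rragd encodes RagD, a small GTPase that pairs with RagA or RagB on the lysosome and brings the growth kinase complex mTORC1 there when amino acids are present. Myrfl encodes a relative of Myrf, a membrane-anchored transcription factor known from myelin formation that cuts itself free to enter the nucleus.

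The total of expected counts per library ran from 12795434 to 27227715. The share of a nuclear rRNA gene was 24.1% (SISC) and 28.5% (LISC) in the replicate 1 libraries, but 0.0917% and 0.0997% in those of replicate 2. Levels are therefore given mainly as CPM, each count over its TMM-scaled library size, which sets library sizes by the bulk of the genes. TPM, which also divides by transcript length, serves to compare genes with each other, and its replicate spread includes the rRNA difference. All 8 stem cell markers examined, Lgr5 among them, were detected in each library. They summed to 501 and 968 TPM in SISC and to 296 and 463 TPM in LISC. In edgeR's test 0 of the 8 passed, where 2.20% of all tested genes did. Of the 8, Smoc2, Axin2, Cdca7 and Slc12a2 did not overlap between the groups, near the share of 40.3% over all tested genes. Their fitted log2 differences (LISC minus SISC) were −1.40, −1.41, −1.34 and −0.49, with edgeR adjusted p-values of 0.172, 0.119, 0.150 and 0.818. The other stem markers were negative too, at −0.28 (Lgr5), −0.36 (Ascl2), −0.75 (Rnf43) and −0.15 (Znrf3), as were 7370 of the 14165 genes tested. Smoc2, Axin2 and Cdca7 had unadjusted edgeR p-values of 0.013, 0.00624 and 0.00993, and 13.4% of all tested genes had one below 0.05. The part of this in the members' differences was not tested. Markers of fibroblasts (5), endothelium (3) and muscle (3) summed to at most 0.44, 0.13 and 0.37 TPM, with the endothelial gene Kdr and the muscle gene Desmin (Des) at 0 counts throughout.

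The 5 genes lie on 5 different chromosomes of GRCm38. Stc2 (ENSMUSG00000020303) occupies chromosome 11 from 31357307 to 31370074 on the minus strand, a span of 12768 bases. Mboat2 (ENSMUSG00000020646) occupies chromosome 12 from 24830879 to 24964397, Ddah1 (ENSMUSG00000028194) chromosome 3 from 145758675 to 145894277 and Rragd (ENSMUSG00000028278) chromosome 4 from 32983037 to 33022180, all on the plus strand. Myrfl (ENSMUSG00000034057) occupies chromosome 10 from 116776535 to 116896919 on the minus strand. RSEM's posterior SD of the count was 0 for each of them in every library, so no reads of theirs were divided with another gene.

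Promoter sequences are shown because they differ between the members that were higher in LISC and Rragd, the member higher in SISC for which RefSeq's table (GRCm38.p6) holds one. Each runs from 250 bases before to 50 bases after the RefSeq start, 5′ to 3′ on the gene's own strand, and capitals mark CpG dinucleotides. The windows are chr11:31370012-31370311 (minus strand) for Stc2, chr12:24831349-24831648 for Mboat2, chr3:145758442-145758741 for Ddah1 and chr4:32982748-32983047 for Rragd. Myrfl is named only.
Stc2: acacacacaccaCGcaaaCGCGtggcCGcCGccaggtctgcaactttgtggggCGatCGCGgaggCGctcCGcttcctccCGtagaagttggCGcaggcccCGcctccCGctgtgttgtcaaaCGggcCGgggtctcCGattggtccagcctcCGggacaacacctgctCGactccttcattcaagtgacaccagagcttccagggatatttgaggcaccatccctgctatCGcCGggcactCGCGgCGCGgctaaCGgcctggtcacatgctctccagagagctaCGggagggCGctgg
Mboat2: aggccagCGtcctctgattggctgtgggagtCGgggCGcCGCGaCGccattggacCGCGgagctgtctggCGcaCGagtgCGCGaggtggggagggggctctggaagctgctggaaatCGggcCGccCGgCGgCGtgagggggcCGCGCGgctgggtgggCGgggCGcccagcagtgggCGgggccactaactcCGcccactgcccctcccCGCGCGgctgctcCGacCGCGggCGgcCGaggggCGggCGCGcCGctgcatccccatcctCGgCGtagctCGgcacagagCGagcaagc
Ddah1: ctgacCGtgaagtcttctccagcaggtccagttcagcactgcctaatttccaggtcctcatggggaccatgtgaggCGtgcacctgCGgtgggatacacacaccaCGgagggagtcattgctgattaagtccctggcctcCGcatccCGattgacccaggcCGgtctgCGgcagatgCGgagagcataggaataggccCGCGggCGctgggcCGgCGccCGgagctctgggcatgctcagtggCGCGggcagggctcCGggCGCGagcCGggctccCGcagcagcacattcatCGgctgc
Rragd: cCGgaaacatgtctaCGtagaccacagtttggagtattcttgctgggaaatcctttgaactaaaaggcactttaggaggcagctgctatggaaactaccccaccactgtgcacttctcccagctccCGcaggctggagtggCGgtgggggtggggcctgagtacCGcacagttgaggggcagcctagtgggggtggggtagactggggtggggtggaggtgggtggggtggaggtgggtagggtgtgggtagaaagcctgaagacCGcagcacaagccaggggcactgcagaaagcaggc

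The Mboat2 window held 40 CpG dinucleotides at 76.3% G+C, the Stc2 window 28 at 64.7% and the Ddah1 window 23 at 65.7%. The Rragd window held 6 CpG at 59.7% G+C. Over the 32851 mouse promoter windows of that length the median was 7 CpG and 52.7% G+C, so the windows of the 3 genes higher in LISC exceeded 78.5% or more of all windows in CpG number and Rragd exceeded 43.6%. With 1 window on one side this is a description of these sequences. On both strands, the GC box GGGCGG was found 6 times in the Mboat2 window, between 128 and 8 bases before the start, and not in the other 3 windows, while 35.7% of all windows hold it. The letters CACGTG (E-box, 7.15% of all windows), AGATAA (the motif of GATA factors, 11.2%) and TAATTA (homeodomain, 5.29%) were in none of the 4 windows, which says only that these letters are not there.

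Stc2, Mboat2 and Ddah1 were higher in LISC, and Rragd and Myrfl were higher in SISC. In bulk samples such as these, fewer cells of a type and less RNA per cell cannot be told apart. The 2 groups did not overlap for any of the 5 genes, as for 40.3% of the 14165 genes tested, and the smallest distance was that of Myrfl, whose lower SISC library was 17.9-fold above its higher LISC library. All 5 were among the genes with an adjusted p below 0.05 in edgeR's quasi-likelihood test, a call made for 2.20% of the 14165 genes tested (1.45% higher in LISC and 0.741% higher in SISC). Nothing is read from that count, since the difference was the reason for the choice. Stc2 and Mboat2 passed the filter on low counts only through their LISC libraries.

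**Figure D1:**
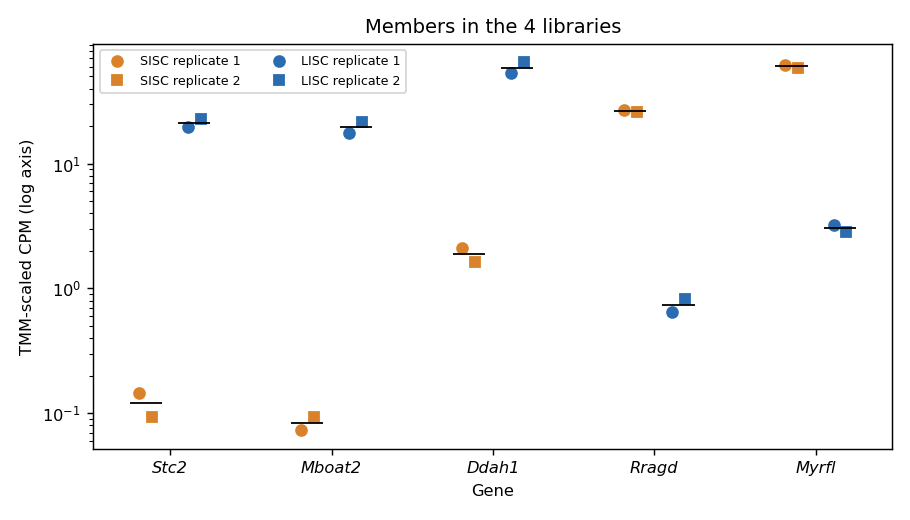
TMM-scaled CPM (log axis) of the 5 genes in each library; orange marks SISC, blue LISC, circles replicate 1, squares replicate 2, and bars the mean of 2 libraries. Stc2, Mboat2 and Ddah1 lie between 17.6 and 64.8 CPM in LISC and at most at 2.11 CPM in SISC, whereas Rragd and Myrfl lie between 25.8 and 62.1 CPM in SISC and at most at 3.24 CPM in LISC.

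Stc2 was read at 0.146 and 0.0937 CPM in the SISC libraries (replicates 1 and 2, the order used throughout) but reached 19.5 and 22.9 CPM in LISC. These are 2 and 3 counts against 210 and 665. In SISC the gene was thus at the limit of detection, since 3 counts, the most that a count of 0 allows, correspond to 0.218 and 0.0937 CPM there. The ratio of pooled counts was 201, with an exact 95% interval of 85.7 to 620 that covers only counting error, since reads are no independent molecules. Within replicate 1 the log2 ratio of LISC over SISC, taken on CPM plus 0.1, was 6.32, and within replicate 2 it was 6.89.

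Mboat2 was read at 0.0728 and 0.0937 CPM in SISC, against 17.6 and 21.6 CPM in LISC, from 1 and 3 counts against 190 and 628. Its pattern was close to that of Stc2, nearly silent in one intestine and moderate in the other. The ratio of pooled counts was 235 (exact 95% interval 91.3 to 863, counting error only), and the log2 ratios within replicates 1 and 2 were 6.68 and 6.81.

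Ddah1 was read at 2.11 and 1.62 CPM in SISC, against 53.1 and 64.8 CPM in LISC. With 29 and 52 counts in SISC it was detected in both intestines, unlike Stc2 and Mboat2. The means were 1.87 ± 0.343 CPM for SISC and 58.9 ± 8.25 CPM for LISC (SD, n = 2 in each group), which the fit put at a 31.9-fold difference, with log2 ratios of 4.59 and 5.23 within replicates 1 and 2.

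Rragd was read at 27.1 and 25.8 CPM in SISC, against 0.649 and 0.825 CPM in LISC. The LISC values rest on 7 and 24 counts, so the gene was detected in LISC at a low level. The means were 26.4 ± 0.917 CPM for SISC and 0.737 ± 0.125 CPM for LISC (SD, n = 2 in each group), which the fit put at a 34.8-fold difference, with log2 ratios of −5.18 and −4.81 within replicates 1 and 2.

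Myrfl was read at 62.1 and 58.1 CPM in SISC, against 3.24 and 2.82 CPM in LISC. It was the member with the highest CPM in SISC and had 35 and 82 counts in LISC. The means were 60.1 ± 2.83 CPM for SISC and 3.03 ± 0.300 CPM for LISC (SD, n = 2 in each group), which the fit put at a 19.9-fold difference, with log2 ratios of −4.22 and −4.32 within replicates 1 and 2.

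The replicates of a group lay close together for all 5 genes. On CPM plus 0.1, replicate 2 differed from replicate 1 by log2 values from −0.36 (Ddah1) to 0.17 (Mboat2) in SISC and from −0.20 (Myrfl) to 0.31 (Rragd) in LISC. Over all tested genes the median absolute log2 difference of replicates was 0.50 in SISC and 0.41 in LISC. Replicate agreement was part of the choice, so this is a description too. TPM differed more, since replicate 2 was 1.74 to 2.67 times replicate 1 in LISC over the 5 genes, with the rRNA shares given above.

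On the per-length TPM scale, Ddah1 was the most abundant of the 5 in LISC, at 16.3 ± 9.50 TPM (SD, n = 2), followed by Mboat2 at 5.88 ± 3.79 and Stc2 at 5.73 ± 2.97. Mboat2 and Stc2 did not differ from each other beyond their spread, and the Ddah1 libraries (9.58 and 23.0 TPM) overlapped in range with none of the Stc2 and Mboat2 libraries, which reached at most 8.56 TPM. Myrfl (0.945 ± 0.361) and Rragd (0.160 ± 0.0849) came last in LISC. In SISC the order began with Myrfl at 18.9 ± 5.69 TPM, above Rragd at 5.44 ± 1.76, Ddah1 at 0.475 ± 0.0778, and Stc2 and Mboat2, listed at 0.03 and 0.02 TPM in both libraries. In its higher intestine, Myrfl had a mean TPM above that of 72.0% of tested genes, Ddah1 of 68.7%, Mboat2 of 43.1%, Stc2 of 42.6% and Rragd of 42.2%. The members were thus moderately expressed genes even where they were high.

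RSEM's deposited gene length, an average of transcript lengths weighted by estimated abundance, depends on which annotated transcripts the reads were given to. Myrfl has 1 annotated transcript of 3164 bases. For Stc2 the length was 3940 bases in both SISC libraries and 3557 and 3901 bases in LISC, next to a protein-coding transcript of 3940 bases. For Ddah1 it was 3764 bases in 3 libraries and 3675 bases in LISC replicate 1, next to a protein-coding transcript of 3764 bases. Mboat2 stood at 3649 and 3392 bases in LISC, so reads were given to its protein-coding transcript of 6792 bases and to shorter ones. The shorter ones are protein-coding transcripts of 436, 2351 and 2467 bases, a nonsense-mediated decay transcript of 2475 bases and a retained intron of 2827 bases. The mean length does not tell these apart. The SISC lengths of Mboat2, 2351 and 6015 bases, rest on 1 and 3 counts. Rragd stood at 4725 and 4718 bases in SISC, between protein-coding transcripts of 4295 bases and of 5008 and 5055 bases, and at 4295 and 5008 bases in LISC, from 7 and 24 counts. Differences in transcript use between the intestines were not tested.

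Paralogs of the members were not used in the choice and were tested. Earlier results of these data were known when they were listed, so the tests are not independent of those results. Mboat1, the closest relative of Mboat2 and likewise a lysophospholipid acyltransferase, was read at 3.06 and 3.69 CPM in SISC, against 40.8 and 59.7 CPM in LISC. All LISC values lay above all SISC values, and the log2 difference of 3.89 ± 0.33 (SE) passed edgeR's quasi-likelihood test (adjusted p = 0.0202). Myrf was read at 109 and 48.6 CPM in SISC, against 0.927 and 0.619 CPM in LISC, from 10 and 18 counts in LISC. Its log2 difference of −6.72 ± 0.61 passed as well (edgeR adjusted p = 0.0218), and was −6.04 without SISC replicate 1, where the call held. The Mboat and Myrf pairs thus each differed in the direction of the member.

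The other paralogs did not pass. Rragc, which encodes the RagD relative RagC, was read at 26.6 and 30.4 CPM in SISC, against 25.8 and 30.4 CPM in LISC (log2 difference −0.02 ± 0.24; edgeR adjusted p = 1.0). Ddah2, the second methylarginine hydrolase gene, was read at 1.96 and 0.531 CPM in SISC, against 2.78 and 2.51 CPM in LISC (log2 difference 1.11 ± 0.80; edgeR adjusted p = 0.766). The Ddah2 value rests on the SISC libraries, which lay far apart: it was 2.29 without SISC replicate 1 and 0.40 without SISC replicate 2, and did not pass in either case. Stc1, the other stanniocalcin gene, had 0 and 1 counts in SISC and 0 and 3 in LISC and was not tested. No stanniocalcin gene was thus read above 3 counts in a SISC library, and in LISC Stc2 was.

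By TPM, Rragd made up 34.6% and 31.1% of the sum of Rragd and Rragc in the SISC libraries, against 1.45% and 1.35% in the LISC libraries. The partner pair was dominated by Rraga in both intestines, at 97.7% to 99.5% of the sum of Rraga and Rragb. Mboat2 made up 24.2% and 21.9% of the sum of Mboat1 and Mboat2 in LISC, where that sum was 13.2 and 39.1 TPM, against 1.35 and 1.80 TPM in SISC. Ddah1 made up 85.8% and 88.4% of the sum of Ddah1 and Ddah2 in LISC but 11.1% and 43.4% in SISC. Myrfl and Myrf were of similar TPM in SISC, with Myrfl at 45.8% and 65.7% of their sum. These shares are built on the members' own levels and carry no test.

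**Figure D2:**
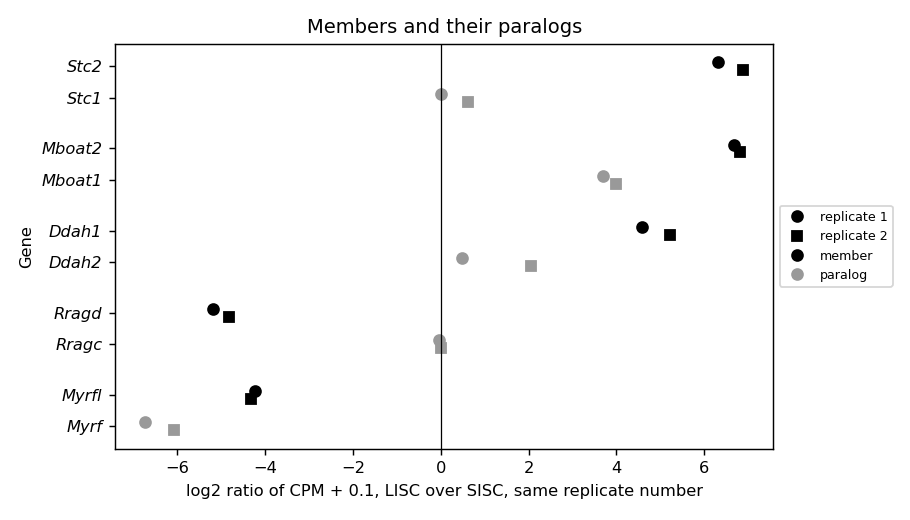
Log2 ratio of LISC over SISC (CPM plus 0.1) within each replicate number for the 5 genes (black) and one paralog of each (grey); circles are replicate 1 and squares replicate 2. Mboat1 and Myrf lie on the side of their relatives, Rragc lies at −0.04 and 0.00, and Ddah2 and Stc1 lie between 0.00 and 2.05.

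The pathway partners were taken from 6 lists with 97 genes, of which 82 were tested; 3 passed as higher in LISC and 4 as higher in SISC. Over all tested genes 206 (1.45%) and 105 (0.741%) were called, 2.20% in either direction, and the median log2 difference was −0.02. These shares are the background for the counts of each list below. At an unadjusted p below 0.05 stood 15 of the 82, against 1899 genes or 13.4% of all tested. By list these were 1 of 7 tested genes of the stanniocalcin and growth factor axis, 4 of 13 acyltransferase genes and 4 of 9 oleate and peroxide genes. The others were 4 of 16 methylarginine and nitric oxide genes, 1 of 35 mTORC1 input genes and 1 of 2 of the Myrf family. Calls lost or kept with 1 library left out, given beside the genes, come from fits in which that group holds 1 library, assumed to vary like those of the other group.

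In the insulin-like growth factor axis around Stc2, Igfbp4, the binding protein that PAPP-A cuts, was lower in LISC, at 30.2 and 25.4 CPM against 165 and 233 CPM in SISC. Its log2 difference was −2.84 ± 0.34 (edgeR adjusted p = 0.0327), and the call was lost without LISC replicate 1 (log2 −2.97), without LISC replicate 2 (−2.71) and with limma on TPM (−2.75). Of 17 genes in that list 7 were tested, 0 passed as higher in LISC and 1 as higher in SISC, with a median log2 difference of −0.20. Pappa, the protease gene itself, had 0 and 1 counts in SISC and 0 and 15 in LISC. Pappa2, a related protease gene, had 23 and 2 counts in SISC and 1 and 0 in LISC. The receptor genes Igf1r (log2 −0.20 ± 0.39), Igf2r (0.78 ± 0.62) and Insr (0.35 ± 0.25) and the adaptor gene Irs2 (−0.34 ± 0.35) did not pass edgeR's test. The 6 IGF-binding protein genes below the filter had at most 8 counts in a library. Of the ligand genes, Igf2 stood at −0.10 ± 0.77 and Igf1 had 0 and 1 counts in SISC and 5 and 18 in LISC.

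Among 13 lysophospholipid acyltransferase genes, all tested, Mboat1 was the only one called, and 0 were called higher in SISC. The list's median log2 difference was 0.32. Lpcat3 (−0.17 ± 0.25) and Mboat7 (−0.08 ± 0.27), relatives of Mboat2 that prefer polyunsaturated chains, and Agpat1 (0.10 ± 0.39) and Agpat3 (−0.17 ± 0.27), which acylate lysophosphatidic acid, did not pass. Lpcat2, an acyltransferase gene singled out after its values were seen, was read at 0 and 0.500 CPM in SISC, against 17.4 and 20.5 CPM in LISC, and did not reach the threshold (log2 5.94 ± 0.98, edgeR adjusted p = 0.0636).

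The list of oleate supply and lipid peroxide defence, processes next to Mboat2, held 9 tested genes, of which 2 passed as higher in LISC and 0 as higher in SISC. Both were stearoyl-CoA desaturases, the enzymes that make oleate. Scd2 was read at 64.9 and 49.2 CPM in SISC, against 423 and 318 CPM in LISC (log2 difference 2.70 ± 0.36; edgeR adjusted p = 0.0428). Scd1 had 1 and 2 counts in SISC and 77 and 268 in LISC (edgeR adjusted p = 0.0216). The ratio of its pooled counts was 132 (exact 95% interval 44.8 to 643, counting error only). Like Stc2 and Mboat2, Scd1 passed the filter on low counts only through its LISC libraries, which limits what its call can show. Scd1 kept its call under the 11 alternatives run, whereas Scd2 lost it under 6, its log2 difference staying between 2.48 and 2.90. The list's median log2 difference was 1.24. Acsl3, which activates oleate, stood at 1.24 ± 0.31 without passing (edgeR adjusted p = 0.155), and the lipid peroxide reductase gene Gpx4 at 0.00 ± 0.37. Aifm2 and Dhodh, which keep lipid-soluble antioxidants reduced, stood at 0.17 ± 0.33 and 0.13 ± 0.28.

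Of 20 genes of methylarginine and nitric oxide metabolism, 16 were tested, 0 passed as higher in LISC and 2 as higher in SISC, with a median log2 difference of −0.37. Nos2, the inducible nitric oxide synthase, was read at 15.1 and 15.9 CPM in SISC, against 2.41 and 1.89 CPM in LISC (log2 difference −2.86 ± 0.33; edgeR adjusted p = 0.0308). Slc7a2, a transporter of arginine, was read at 23.8 and 16.8 CPM in SISC, against 2.69 and 1.55 CPM in LISC (log2 −3.29 ± 0.42, edgeR adjusted p = 0.0403). Both were high in the intestine where Ddah1 was low. The Nos2 call was lost without SISC replicate 2 (log2 −2.84) or LISC replicate 2 (−2.67), and that of Slc7a2 without LISC replicate 2 (−2.90) and with rRNA and mitochondrial genes left out (−3.28). Nos1 had 0 counts in each library and Nos3 at most 2. The arginine methyltransferase genes Prmt1 (−0.49 ± 0.28), Prmt5 (−0.33 ± 0.29) and Carm1 (−0.20 ± 0.43) did not pass, nor did Asl, which makes arginine (0.13 ± 0.26), nor did Arg2, an arginase gene chosen after its values were seen (−2.72 ± 0.46, edgeR adjusted p = 0.0652).

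The amino acid input to mTORC1, in which RagD works, gave 0 calls among 35 tested genes in edgeR, which called 2.20% of all tested genes. At an unadjusted p below 0.05 stood 1 of the 35, and 13.4% of all tested genes. Their log2 differences ran from −1.55 to 1.96 with a median of 0.06. Rraga stood at 0.17 ± 0.26, the Ragulator genes Lamtor1, Lamtor2 and Lamtor5 at −0.03 ± 0.29, 0.10 ± 0.65 and 0.11 ± 0.31, and the GATOR2 gene Sec13 at −0.53 ± 0.26. Rragb, at most at 0.859 CPM in any library, stood at 1.75 ± 0.86 (edgeR adjusted p = 0.531). Tfeb and Tfe3, genes of lysosomal transcription factors, stood at 0.11 ± 0.37 and −0.14 ± 0.23. Sesn1, a leucine sensor family gene chosen after its values were seen, had the unadjusted p below 0.05, at −1.39 ± 0.30 (edgeR adjusted p = 0.114). DESeq2 called 1 of the 35, Sesn1, and 8.35% of all tested genes. Tmem98, whose product binds Myrf, stood at 0.43 ± 0.27 beside the call of Myrf.

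**Figure D3:**
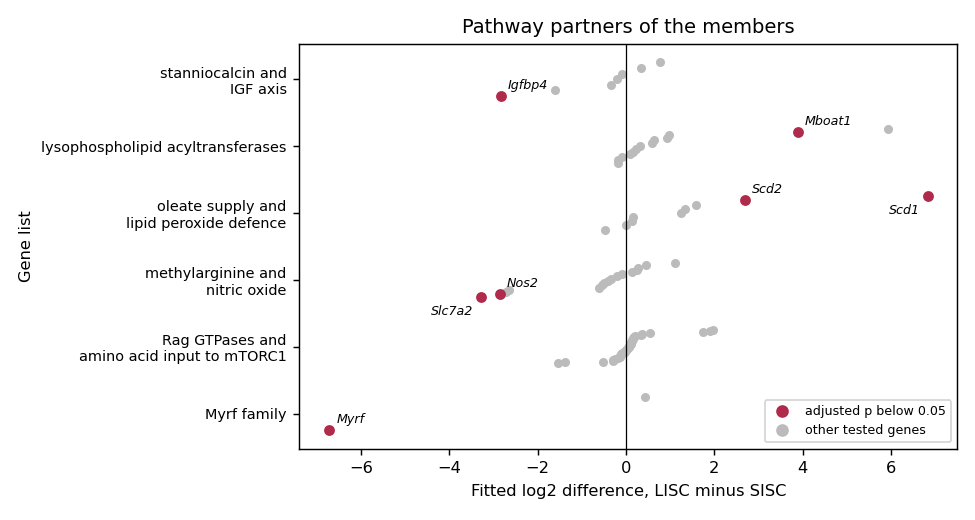
Fitted log2 difference of LISC minus SISC for the tested genes of the 6 lists, the members left out; red points have an edgeR adjusted p below 0.05 and are named, grey points do not. Mboat1, Scd1 and Scd2 are called higher in LISC, Igfbp4, Nos2, Slc7a2 and Myrf higher in SISC, and the mTORC1 list has no red point.

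The members' genomic neighbours, the 2 nearest protein-coding genes on each side, numbered 20, of which 14 were tested. By edgeR 0 were called in either direction, 3 had an unadjusted p below 0.05 (Ccn1, Cpeb4 and Rrm2), and DESeq2 called 1 (Ccn1). Over all tested genes 13.4% had such an unadjusted p and DESeq2 called 8.35%, so the neighbours' counts were near the background. Kidins220, 10.5 kb beyond Mboat2, stood at 0.23 ± 0.42, Rab3ip, 8.87 kb upstream of Myrfl, at −0.03 ± 0.28, and Ube2j1, 9.24 kb beyond Rragd, at −0.19 ± 0.23. Bcl10, 28.5 kb beyond Ddah1, stood at 0.30 ± 0.25, and Bod1, 295 kb upstream of Stc2, at −0.05 ± 0.25. The 2 largest differences were those of Ccn1 and Cpeb4. Ccn1, upstream of Ddah1, was read at 810 and 158 CPM in SISC, against 82.0 and 31.5 CPM in LISC, opposite in direction to Ddah1 (−3.09 ± 0.96, edgeR adjusted p = 0.240). Cpeb4, 502 kb upstream of Stc2, stood at 1.35 ± 0.39 (edgeR adjusted p = 0.207). Gm17332, Cys1 and Gm10271 had 0 counts in all libraries.

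Few genes overlapped the members. The gene 2900060N12Rik, annotated as a bidirectional promoter lncRNA on the opposite strand, has a span that overlaps an annotated exon of Mboat2. Whether its own exons do was not examined. It had 1 count in SISC replicate 2 and 0 in the other libraries. The pseudogene Rpl36a-ps2 lies in Ddah1 on the same strand without touching an annotated exon of it. It was read at 75.8 and 127 CPM in SISC, against 66.7 and 73.2 CPM in LISC, short of the threshold (log2 difference −0.54 ± 0.35; edgeR adjusted p = 0.714).

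**Figure D4:**
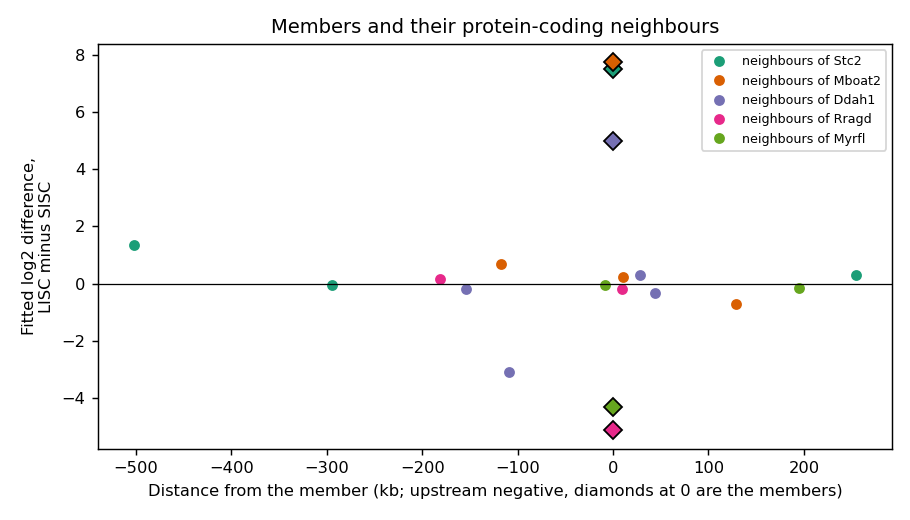
Fitted log2 difference of LISC minus SISC against distance in kb for the tested protein-coding neighbours (circles) and the members themselves (diamonds at 0), one colour per member. The neighbours lie between −3.09 and 1.35, whereas the members lie at −5.12 and −4.31 or between 4.99 and 7.73; those of Stc2 and Mboat2 depend on the fit's prior count, since SISC holds few counts of either.

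Likeness of pattern was measured as the distance between log2 CPM profiles over the 4 libraries, each gene centred on its own mean. Nearest to Stc2 were Ugt2b5, a glucuronosyltransferase gene (distance 0.24), the carbonyl reductase gene Cbr3 (0.31) and the homeobox gene Hoxa10 (0.37). Nearest to Mboat2 were Ugt2b5 (0.19), 2610528A11Rik (0.19) and Hoxa10 (0.30). Stc2 and Mboat2 were each other's next nearest gene, the fourth for both, at a distance of 0.40. Nearest to Ddah1 were Slc16a9 (0.28), Ttc9 (0.36) and Pitpnm3 (0.44), nearest to Rragd were Efcab1 (0.17), Gm15293 (0.27) and Gpr22 (0.33), and nearest to Myrfl were Cd55b (0.27), Tubb2b (0.34) and Agmat (0.36). Rragd and Myrfl lay 0.82 apart. With 4 points in 2 groups such a distance mostly reads the size of the difference on this scale. The log2 CPM used here adds a prior count of 2, which shrinks differences of genes with few counts in the lower group. Ttc9 had 0 counts in SISC, and Gpr22 and Cd55b had 0 in LISC. Their fitted log2 differences were 8.82, −8.77 and −8.07, against 4.99, −5.12 and −4.31 for Ddah1, Rragd and Myrfl. On log2(TPM + 1) in place of CPM 0 of these 15 pairings remained among the nearest 3.

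Markers of differentiated cells also differed between the libraries. Paneth cell markers (6) summed to 17800 and 3610 TPM in SISC and 77.5 and 61.2 TPM in LISC, and enterocyte markers (6) to 38.6 and 76.6 TPM against 0.560 and 6.51 TPM. Colonocyte markers (5) summed to 11 and 20 TPM in SISC and 210 and 1640 TPM in LISC, and goblet markers (7) to 1260 and 553 against 1580 and 5620 TPM. Within replicate 1 the goblet markers differed in direction: Tff3, Clca1 and Zg16 had lower TPM in LISC, and Muc2, Fcgbp, Spdef and Agr2 higher. Within replicate 2 all 7 were higher in LISC. Deep crypt secretory markers (3) summed to 1500 and 719 TPM in SISC and 1420 and 12800 TPM in LISC. Most of that sum in SISC was Spink4, at 1415 and 691 TPM (929 and 8584 in LISC). Reg4 stood at 85.1 and 25.05 TPM in SISC, against 488 and 4229 TPM in LISC (edgeR adjusted p = 0.147). Tuft cell (4), enteroendocrine (6) and immune (6) markers summed to 3.52 and 1.66, 86.5 and 18.3, and 124 and 213 TPM in SISC, and to 11.8 and 28.2, 31.3 and 72.1, and 30.0 and 94.9 TPM in LISC. The colonocyte markers Car4 (edgeR adjusted p = 0.0218) and Cyp2c55 (0.0269) were called higher in LISC. Called higher in SISC were the enterocyte markers Apoa4 (edgeR adjusted p = 0.0264, with 0 counts in LISC) and Sis (0.0431) and the Paneth marker Defa30 (0.0431). No goblet, deep crypt secretory, enteroendocrine or tuft marker was called. Over all tested genes 2.20% were called. Fitted log2 differences of the 6 enteroendocrine markers ran from −3.93 (Cck) to 2.90 (Pyy). Nearly all of the immune sum in SISC was the class II gene H2-Ab1, at 123 and 212 TPM (23.5 and 44.7 in LISC; edgeR adjusted p = 0.0354). The leukocyte gene Ptprc lay at 0.09 and 0.13 TPM in SISC and at 0.60 and 2.28 TPM in LISC (edgeR adjusted p = 0.235). The macrophage gene C1qa lay at 0 and 0.09 against 5.72 and 47.5 TPM (edgeR adjusted p = 0.0455). With 0 and 2 counts in SISC, C1qa passed the low-count filter only through LISC. Lyz2 went the other way, with 5 and 3 counts in SISC and 0 in both LISC libraries. Cd79a had 3 and 10 against 0 and 7 counts, and Cd3e 1 and 4 against 1 and 6. Lyz2, Cd79a and Cd3e were below the filter and not tested. Glial markers (3) summed to at most 1.53 TPM, with S100b and Sox10 at 0 counts throughout. On the same scale the SISC libraries held Rragd at 4.19 and 6.68 TPM (27.1 and 25.8 CPM) and Myrfl at 14.9 and 22.9 TPM (62.1 and 58.1 CPM). Myrf stood there at 17.6 and 12.0 TPM (109 and 48.6 CPM). The LISC libraries held Stc2 at 3.63 and 7.83 TPM, Mboat2 at 3.20 and 8.56 TPM and Ddah1 at 9.58 and 23.0 TPM. The part of differentiated, immune and glial cells in the members' differences was not tested.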

How the data were processed

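Libraries were strand-marking and made from poly(A) RNA, per the labels' protocols. The submitters' processing notes name STAR 2.7.2b, RSEM 1.2.31 and GRCm38/mm10. The annotation release and the strand option were not given in the sources used here. Deposited by the authors were expected counts of RSEM, which divide reads shared between genes, TPM values scaled by effective length, and gene lengths with posterior SDs. Of the gene identifiers, 55141 of 55487 had a GENCODE vM21 symbol.

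Expected counts were rounded and tested by edgeR 4.0.16 under R 4.3.3 (quasi-likelihood, a group term alone, TMM, filterByExpr at 10 counts), Benjamini-Hochberg adjusted over 14165 genes at a threshold of 0.05. Standard errors are the log2 difference divided by the square root of F. Alternatives used DESeq2 1.42.0, limma 3.58.1 on log2(TPM + 1), other filters and scalings, a replicate term and each library left out. Groups and replicate numbers came from sample titles. Tested on simulated counts (13845 genes), edgeR recovered 2%, 28%, 84% and 96% of 2-, 4-, 8- and 16-fold changes, and 3 of its 108 calls fell on genes left unchanged. The simulation used a common dispersion for all genes and independent libraries, and changed only genes above a minimum expected count. Dispersions of single genes and the shared deviations of same-numbered libraries were not simulated. These rates therefore need not hold for the genes described here.

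The members, gene lists and tests were chosen with earlier results of these data known. The genes named are the members, their paralogs, called list genes, up to 4 further genes per list by mean TPM, the 2 nearest protein-coding genes on each side and the 3 nearest profiles; exceptions are marked where they stand, except that Igf1, Igf2, Pappa, Pappa2, Nos1, Nos3, Tfeb, Tfe3 and Tmem98 were also given for their role. Promoters are RefSeq's and matched for 4 of 5 members.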

Additional observations from a re-analysis of the deposited data

How the results depend on the processing

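The 5 members kept their direction under the 11 alternatives run. With limma on log2(TPM + 1), which compresses low values, the log2 differences were 2.63 for Stc2, 2.64 for Mboat2, 3.44 for Ddah1, −2.45 for Rragd and −3.34 for Myrfl, and likewise 1.55 for Scd1, 2.87 for Mboat1, −1.62 for Nos2, −1.45 for Slc7a2 and −3.76 for Myrf. Leaving out 1 library at a time, which leaves a group with a lone library assumed to vary like the other group, gave 7.09 (without SISC replicate 2) to 7.74 for Stc2. The number of genes called higher in LISC and in SISC, 206 and 105, became 942 and 465 without the low-count filter, 785 and 398 with DESeq2, 353 and 172 with limma on TPM, and 166 to 338 and 79 to 149 with 1 library left out (338 without SISC replicate 1). The 7 calls in the pathway lists were 11 without the low-count filter, 11 with DESeq2 and 3 to 7 with 1 library left out, the 3 without LISC replicate 2. With rRNA and mitochondrial genes left out, 162 and 78 genes were called, the lowest numbers over the 11 alternatives, and 5 in the lists. For these counts the cause was not tested. Replicate numbers are shared by the groups but no label says that they pair samples, and the deviations of same-numbered libraries correlated at 0.648 across genes, which are not independent replicates. A replicate block gave 1015 and 524 called genes and 13 calls in the lists. On log2(TPM + 1) 0 of the 15 nearest profiles remained. Scaling alternatives moved the median of all genes by at most 0.1 on the log2 scale. Depth limits the lower group most: Stc2 and Mboat2 rest on 5 and 4 pooled SISC counts and Rragd on 31 pooled LISC counts.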
